A study of Mus musculus with 6 samples.

Results

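Newborn livers of pups whose mothers ate coconut oil (group SFA, 2 arrays) were compared with newborn livers of pups whose mothers ate soybean oil (group Control, 2 arrays). These 4 arrays were taken by their titles out of 6; the remaining 2 arrays (group ALA, flaxseed oil) served as a second reference for what set coconut oil apart. The comparison covered 19938 genes that had a probe annotated to exactly 1 symbol, of which 10977 had a mean log2 signal of at least 5 over the 6 arrays and were tested.

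All animals were C57Bl6/J mice, and each array carried total RNA of 3 pooled livers taken within a day of birth. Mothers were 4 to 5 weeks old when they entered one of 3 isocaloric diets with 6 g% of oil; fathers ate chow except while mating, when they shared the female's diet. Saturated fatty acids made up 48.51% in the SFA diet and alpha-linolenic acid (ALA) 31.6% in the ALA diet, and oleic acid 42% in a diet labelled RD. Room light followed a cycle of 12 h light and 12 h dark. The labels used here give no litter, sex, birth weight, exact age or hour of collection. The 2 arrays of a group are labelled duplicates; nothing says that their pools came from separate litters, so each p-value measures only the spread between these pools, which may be partly technical.

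Coconut oil is rich in medium-chain saturated fatty acids, which the liver takes up and oxidises readily, while soybean and flaxseed oils supply polyunsaturated ones. In mouse pups the liver is still partly a blood-forming organ at birth. Over the following weeks it replaces proliferation and fetal gene products with the enzymes of adult drug, bile acid and lipid metabolism. Maternal fat reaches the pup through the placenta and then through milk.

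Hepatocyte markers had mean log2 values between 11.96 and 12.11 on all 6 arrays, so the tissue label held on each. Duplicates correlated across genes at 0.977 in Control, 0.978 in ALA and 0.986 in SFA. Both SFA arrays read slightly lower over the whole chip: the median of all probes was 4.76 and 4.82 on them and 4.90 to 4.96 on the other 4, while the median of the tested genes spanned 6.78 to 6.87. Sex-linked genes split the pools. Y-linked Uty read 3.79 and 4.22 on the SFA arrays, 3.45 and 6.85 on the Control arrays, and 6.74 and 6.93 on the ALA arrays. X-linked Xist, which silences an X chromosome in females, read 9.46 and 9.51 in SFA, 10.67 and 8.34 in Control, and 3.76 and 4.24 in ALA. The SFA arrays therefore carried female RNA without detectable Y-linked signal and the ALA arrays the reverse, so that sex and diet cannot be told apart between SFA and ALA. Control replicate 1 resembled SFA on these genes and Control replicate 2 carried both signals, so SFA and Control also differ in part in sex.

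Many genes differed between SFA and Control by small amounts. With limma's moderated test and Benjamini-Hochberg adjustment at 0.05, 727 genes (6.62% of those tested) were higher and 785 (7.15%) were lower in SFA than in Control. Of these 1512 genes, 1032 (68.3%) changed by less than 1 on the log2 scale. The median difference over all tested genes was -0.05. Flaxseed oil, in the same fit, gave 561 genes higher (5.11%) and 310 lower (2.82%) than Control; both comparisons use the same Control arrays. The direct test of SFA against ALA called 48 genes higher (0.437%) and 120 lower (1.09%). The split between higher and lower genes depended on how arrays were scaled: 48.1% of the SFA against Control calls were higher on the deposited scale, 51.8% after centring each array on its tested genes, 61.9% after cyclic loess, 64.6% after quantile normalization, 66.1% after centring on the 75th percentile and 75.7% after centring on the median of all probes. That last centring also moved the median of all tested genes from -0.05 to 0.10, so changes near 0 are read here relative to that shift. Leaving out single arrays cost many calls, with 735 left without Control replicate 1, 367 without Control replicate 2, 245 without SFA replicate 1 and 362 without SFA replicate 2. All 1512 genes kept their sign in each of these refits. They had been called on the same arrays, so leaving out 1 array could hardly change a sign.

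The 12 genes that rose with the smallest p-values, outside those with the largest changes, had varied roles. Mt1, a metallothionein that binds zinc and copper, read 9.41 and 9.63 in Control and 11.93 and 11.83 in SFA. The groups lay far apart, and Mt1 rose 5.13-fold (log2 change 2.36 ± 0.13 SE, adjusted p = 0.000774). Tfrc, the transferrin receptor that brings iron into cells, read 5.70 and 5.74 in Control and 8.29 and 8.18 in SFA, a 5.71-fold rise (adjusted p = 0.00284). Igfbp3, a carrier of insulin-like growth factors, read 7.01 and 6.64 in Control and 9.06 and 8.88 in SFA, a rise of 2.15 ± 0.16 on the log2 scale. Grb10, an imprinted adaptor that restrains insulin and IGF receptor signalling, rose by 2.11 ± 0.18. Mmp2, a gelatinase that cleaves matrix, rose by 1.83, and Anxa2, a calcium-dependent membrane-binding protein, by 1.73. Cd93, a receptor of endothelial cells, rose by 1.88. Cd24a, a surface glycoprotein of precursor cells, rose by 2.38, and the linker histone H1f1 by 1.42. Isg20, an interferon-induced exonuclease, rose by 1.60. Mpzl1, a cell-surface glycoprotein, read 6.07 and 6.20 in Control, 7.23 and 7.32 in ALA, and 8.32 and 8.28 in SFA. Its order was the same on every array, with ALA between the other groups. Morc4 completed the 12, with a rise of 1.47. Of these 12 genes, Mpzl1 alone also passed the test between SFA and ALA (1.02, 95% interval 0.73 to 1.31, adjusted p = 0.0348). For Mt1 that interval was -0.42 to 0.21, for Igfbp3 -0.36 to 0.42 and for Mmp2 -0.37 to 0.30.

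The 12 genes that fell with the smallest p-values included enzymes and regulators of the mature liver. Ces1f, a carboxylesterase that hydrolyses esters and lipids, read 11.25 and 11.31 in Control and 8.61 and 8.44 in SFA. It fell by 2.76 ± 0.26 on the log2 scale (adjusted p = 0.00302), and it read 7.27 and 8.15 in ALA. Mme (neprilysin, a peptidase of the cell surface) fell by 2.68, and Plekhb1, a pleckstrin-homology protein, fell by 2.46. Aacs, which turns the ketone body acetoacetate into a lipid precursor in the cytosol, read 7.31 and 7.16 in Control, 6.44 and 6.08 in ALA, and 5.52 and 5.64 in SFA. All 3 groups were separate, and Aacs fell by 1.65 in SFA against Control. Id2, an inhibitor of basic helix-loop-helix factors, fell by 1.64. Lgr5, the R-spondin receptor that marks Wnt-active hepatocytes around the central vein, fell by 1.26 ± 0.12. Zfp809, a zinc-finger repressor of retroviral sequence, fell by 1.63. Cfhr3, a factor H-related complement gene, fell by 1.37. The other 4 genes, Lncpint, Dbp, Naaladl2 and Fam193b, fell by 2.28, 2.18, 1.99 and 1.48 and are the ones of this group that also differed from ALA. These 24 genes were picked with no overlap between the groups, so leaving out an array could not reverse their direction.

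**Figure D1:**
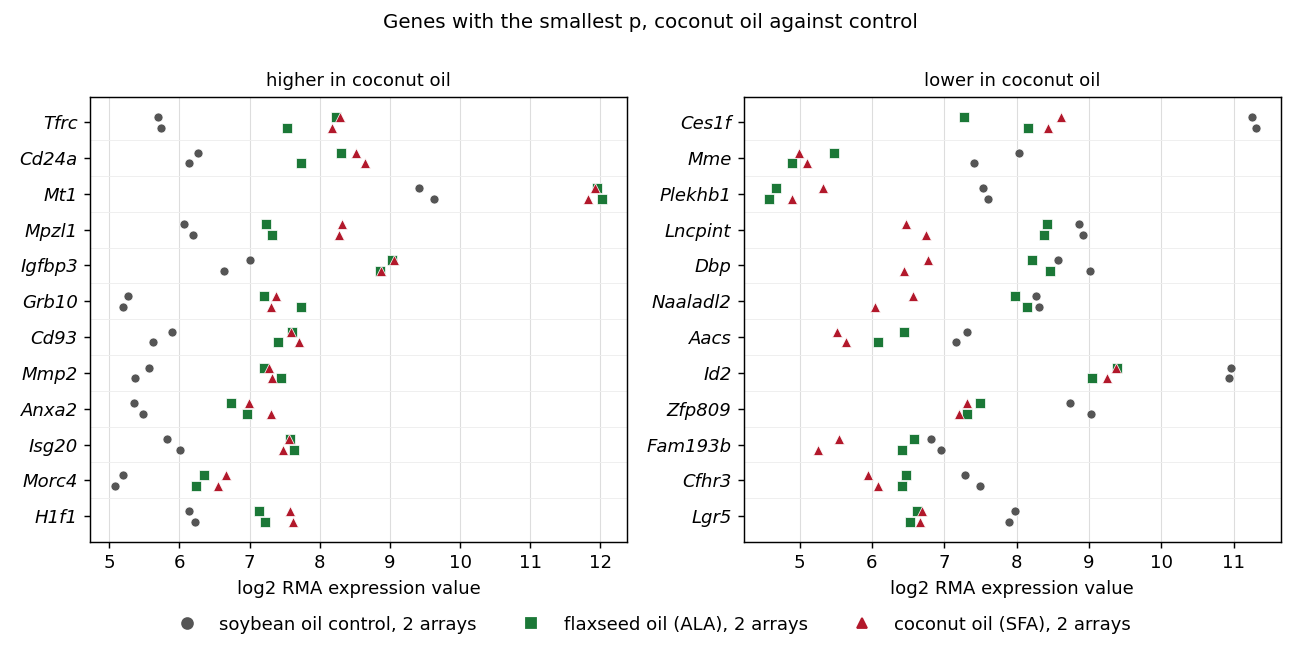
Log2 RMA values (horizontal axis) of the 12 genes with the smallest p-values among those higher (left) and lower (right) in coconut oil than in control, with a point for each of the 6 arrays. On Mt1, Igfbp3, Mmp2 and Cd93 the ALA and SFA points lie together above Control, whereas on Dbp, Lncpint, Naaladl2 and Fam193b the SFA points stand apart from both other diets.

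Genes of dividing cells had the largest median shift of the lists with at least 10 tested members. Of 38 tested genes of the cell cycle and mitosis, 22 rose and none fell, with a median difference of 1.45 against -0.05 for all tested genes. Mki67, the proliferation antigen Ki-67, read 4.77 and 4.82 in Control, 6.87 and 7.81 in ALA, and 7.89 and 7.97 in SFA, an 8.79-fold rise over Control (adjusted p = 0.00302). The Control arrays lay close to background for this gene. Among 38 DNA replication genes, 17 rose and 1 (Mcm10) fell, with a median of 0.71. Rrm2, the inducible subunit of ribonucleotide reductase that makes deoxynucleotides, read 4.70 and 5.21 in Control and 8.02 and 7.90 in SFA, an 8.05-fold rise. Mcm6, a subunit of the replicative helicase, rose by 2.38, and Rrm1, the large reductase subunit, rose by 1.84. Against ALA, both lists leaned the same way (medians 0.53 and 0.48), but Rfc4 of the clamp loader was the only member called. Without ALA replicate 1 those medians were 0.12 and 0.27. The cell cycle list kept 8 calls without Control replicate 2, 5 without SFA replicate 1 and 10 without SFA replicate 2. The replication list had 9 higher without Control replicate 1, 7 without Control replicate 2 and 6 without either SFA array. Markers of erythroid precursors and red cells were also higher: their mean was 5.07 and 5.14 in Control, 5.56 and 5.50 in ALA, and 5.70 on both SFA arrays, with 3 of 10 tested called higher, Tfrc among them, and Ermap called lower. Their part in the cell cycle and replication results was not tested. Stmn1, a tubulin-binding protein of dividing cells, rose by 2.66 in the cytoskeleton list, where 13 of 40 members rose and none fell; 7 were called without Control replicate 2 or SFA replicate 2 and 6 without SFA replicate 1.

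Matrix genes rose with either oil. Of 39 tested genes of extracellular matrix and basement membrane, 22 rose and none fell in SFA (median 0.78), and 22 rose in ALA (median 0.85), with both medians taken against the same Control arrays. Thbs1 (thrombospondin) rose by 2.44, the basement membrane linker Nid1 by 2.26 and Postn (periostin) by 2.17. No matrix gene was called between SFA and ALA, where the median was -0.05, and the 95% interval for Nid1 was -0.77 to 0.88. Without Control replicate 2, SFA replicate 1 or SFA replicate 2, 9, 5 and 8 matrix genes were called against Control. Markers of other liver cells moved with this group: the mean log2 value of 20 stellate cell and fibroblast markers was 5.81 to 6.10 in Control and 6.85 to 6.87 in SFA, with 13 of 17 tested called higher. That of 20 endothelial markers was 6.77 to 7.32 in Control and 7.77 to 7.80 in SFA, with 11 of 20 called higher. The macrophage markers had means of 6.78 to 6.81 and 7.50 to 7.53, with 10 of 16 tested called higher, and the megakaryocyte markers of 5.55 to 5.57 and 6.62 to 6.80. In ALA the means were 6.75 to 6.88 for stellate cell and fibroblast markers and 8.06 to 8.16 for endothelial ones. Macrophage markers read 7.54 to 7.94 and megakaryocyte markers 6.28 to 6.49 in ALA. Markers of pancreas, gut, muscle, mast cells, B cells and T cells stayed between 4.06 and 5.13 on every array. The part of these cells in the matrix result was not tested. In bulk RNA, more cells of a type and more RNA per cell cannot be told apart.

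In the list of 18 tested fetal liver and hepatoblast genes, 9 rose and none fell in SFA (median 0.53). With flaxseed oil 7 rose and none fell against the same Control arrays, also with a median of 0.53. Igf2, the fetal growth factor, read 5.06 and 5.64 in Control, 6.03 and 6.15 in ALA, and 6.71 and 7.12 in SFA. It rose by 1.57 ± 0.22. Of 26 genes of IGF, HGF and FGF signalling, 7 rose and 3 fell, with a median of 0.04. Igfbp5 rose by 1.54, while the angiogenic factor Vegfa and the receptor Fgfr3 fell by 0.79 and 1.22. With Control replicate 2 or either SFA array left out, 2 of this list were called higher, and of the 3 lower ones 1 was called without Control replicate 1 and none without either SFA array. The fetal list had 6 higher and 2 lower without SFA replicate 2. Igf1, the postnatal growth factor, read 10.79 and 10.75 in Control and 10.76 and 10.74 in SFA, a difference of -0.02 (adjusted p = 0.935).

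Of 24 tested genes of glycolysis and pyruvate metabolism, 8 rose and 1 fell in SFA (median 0.31). Pfkl, the liver form of phosphofructokinase, read 6.58 and 6.55 in Control, 7.46 and 6.85 in ALA, and 8.02 and 8.01 in SFA, and rose by 1.45 ± 0.20. The glycolytic enzymes Pgam1, Pgk1 and Tpi1 rose by 1.04, 0.75 and 0.60, and the glucose transporter Slc2a1 by 0.97. Pdk4, which blocks pyruvate entry into the citric acid cycle, rose by 1.95, though its Control arrays were far apart at 7.51 and 6.04. Ldhd, the mitochondrial D-lactate dehydrogenase, fell by 1.14. Without SFA replicate 1 no gene of this list was called; 5 were called higher without Control replicate 1, and 2 without Control replicate 2 or SFA replicate 2. Gluconeogenic Pck1 and G6pc differed by 0.01 and 0.14 (adjusted p = 0.981 and 0.76), and Cpt1a, the gate of mitochondrial fatty acid oxidation, by 0.02 (adjusted p = 0.936).

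Drug-metabolizing lists differed. Of 19 tested UDP-glucuronosyltransferases, sulfotransferases and their partners, 9 fell and 1 rose in SFA (median -0.53). That was the largest share lower of any list with 10 or more tested members. Flaxseed oil gave 7 lower and 1 higher against the same Control arrays (median -0.51), and SFA against ALA had a median of 0.11. Ugt3a1 read 10.22 and 9.87 in Control, 8.46 and 7.97 in ALA, and 8.03 and 8.19 in SFA, and fell by 1.94 ± 0.20. Sult2a8 and Sult5a1 fell by 1.45 and 1.30, and Sult1d1 rose by 0.83. Ugdh, which makes the UDP-glucuronate that these enzymes use, differed between the oils. It read 10.08 and 10.27 in Control, 8.21 and 8.45 in ALA, and 9.35 and 9.30 in SFA, so that it fell by 0.85 with coconut oil and stood 0.99 above ALA (95% interval 0.66 to 1.33, adjusted p = 0.0393). Other conjugating enzymes did not follow, as 2 of 18 glutathione S-transferases (11.1%) rose and 1 (5.56%) fell (median 0.09). The cytochromes P450 of families 1 to 3 had 3 higher and 3 lower of 32 (9.38% each, median -0.06). Beside these, 6.62% of all tested genes were higher and 7.15% lower. In the phase I list without cytochromes P450, 8 of 23 fell and 1 rose with flaxseed oil, and 5 fell and none rose with coconut oil. Aox1 (aldehyde oxidase), Adh4 (an alcohol dehydrogenase) and Aldh1a1 (retinal dehydrogenase) fell by 1.93, 1.59 and 1.31. Among 33 solute carriers of the hepatocyte 5 fell and 1 rose with flaxseed oil, and 6 fell and 1 rose with coconut oil (both medians -0.07). The organic anion carrier Slc22a30 fell by 2.46 in SFA. Leaving out either SFA array left 2 conjugation genes called lower, and leaving out Control replicate 2 left 3. The phase I list had 3 lower without either SFA array, and the solute carriers had 2, 1, 0 and 1 lower without Control replicates 1 and 2 and SFA replicates 1 and 2 in turn. Near-identical copies in the Ugt, Sult, Ces and Cyp families can share probe signal, so single members of these families are uncertain.

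The list of genes known to rise in mouse liver after birth had 7 members lower and 1 higher with flaxseed oil (median -0.07). With coconut oil this list had 11 of 32 tested members lower and 1 higher (median -0.18). Besides Ces1f, Aox1, Aldh1a1 and Nr1i3, it included Gckr, the regulator of glucokinase, which fell by 0.54. This list had 7 lower without Control replicate 2 or SFA replicate 1 and 6 without SFA replicate 2. In the bile acid list, 5 of 24 fell and 1 rose: the canalicular pumps Abcc2 and Abcb4 fell by 0.57 and 0.54, the conjugating enzyme Baat by 0.48, and the oxysterol hydroxylase Cyp39a1 rose by 1.57. Cyp7a1, which starts the classical pathway to bile acids, read 11.02 and 10.50 in Control and 10.27 and 10.17 in SFA, a difference of -0.54 (adjusted p = 0.113). Of 31 peroxisomal genes, 6 fell and none rose (median -0.24). The thiolases Acaa1b and Acaa1a fell by 1.50 and 1.00, and Scp2, a sterol carrier with thiolase activity, by 1.03. No peroxisomal gene was called without SFA replicate 1, 1 was lower without Control replicate 2 or SFA replicate 2, and 3 without Control replicate 1. The bile acid list had 1 lower without Control replicate 1, 2 without Control replicate 2 and none without either SFA array.

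Of 52 tested genes of amino acid catabolism 7 rose (13.5%, beside 6.62% of all tested genes) and none fell in SFA, with a median of 0.08. Flaxseed oil also gave 7 higher and none lower against the same Control arrays, with a median of 0.1. Acmsd, which steers tryptophan breakdown away from NAD synthesis, read 5.10 and 4.87 in Control, 6.37 and 6.43 in ALA, and 7.44 and 7.40 in SFA. All 3 groups were separate, and Acmsd rose by 2.43 ± 0.13 over Control and by 1.02 ± 0.13 over ALA. Bhmt, which remethylates homocysteine with betaine, rose by 1.30, and the aspartate aminotransferase Got1 by 0.92. With either SFA array left out, 1 gene of this list was called, with 4 called without Control replicate 1 and 2 without Control replicate 2.

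Among immune lists, acute phase and innate response genes had 1 higher and 1 lower of 33 (3.03% each). Complement genes had 3 higher (10.7%) and 2 lower (7.14%) of 28, beside 6.62% higher and 7.15% lower of all tested genes. Of 30 tested interferon response genes, 7 fell and 2 rose (median -0.44). Ifi27 fell by 1.62, the regulator Irf1 by 1.01 and the signal transducer Stat2 by 0.67, while Isg20 and Rsad2 (viperin) rose by 1.60 and 1.40. All 14 tested genes of antigen presentation had a negative difference (median -0.51), and 3 were called: Nlrc5, the transactivator of class I genes, fell by 0.70, the immunoproteasome subunit Psmb9 by 0.59 and the peptide transporter Tap2 by 0.55. Without Control replicate 1 or either SFA array none of these 3 was called, and without Control replicate 2 the list had 1 call. The interferon list had 1 lower without Control replicate 1, Control replicate 2 or SFA replicate 1 and 2 without SFA replicate 2. Macrophage markers were higher in SFA, as given above; their part in these lists was not tested.

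Of 29 tested genes of fatty acid synthesis and desaturation, 3 fell (10.3%, beside 7.15% of all tested genes) and 1 rose (3.45%, beside 6.62%). With either SFA array left out 1 was called lower. Srebf1, which switches on fatty acid synthesis, read 8.88 and 8.79 in Control, 7.87 and 8.26 in ALA, and 7.94 and 7.66 in SFA, and fell by 1.03 ± 0.17. Mlxipl (ChREBP), which responds to glucose, read 10.25 and 10.42 in Control, 9.82 on both ALA arrays, and 9.15 and 9.05 in SFA. It fell by 1.23 ± 0.13 against Control and stood 0.72 below ALA (95% interval -1.02 to -0.42, adjusted p = 0.047). Me1, which supplies NADPH for lipid synthesis, fell by 1.21, and the phosphatidate phosphatase Lpin1 rose by 0.78. Fasn, the fatty acid synthase, read 10.46 and 9.78 in Control and 9.67 and 9.74 in SFA (difference -0.41, adjusted p = 0.443). Scd1, the desaturase, read 11.58 and 11.74 in Control, 8.77 and 10.47 in ALA, and 11.47 and 11.43 in SFA. Its SFA level was 0.21 below Control (adjusted p = 0.781) and 1.82 above ALA (95% interval 0.71 to 2.93, adjusted p = 0.0957). None of the 20 tested cholesterol synthesis genes was called between SFA and Control (median -0.08) or between SFA and ALA (median 0.91); without ALA replicate 1, the lowest array for many of them, the second median was 0.29. Apoa5, which promotes the clearance of plasma triglyceride, read 10.87 and 10.66 in Control, 10.46 and 10.38 in ALA, and 9.56 and 9.57 in SFA, and was 1.20 below Control and 0.86 below ALA.

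**Figure D2:**
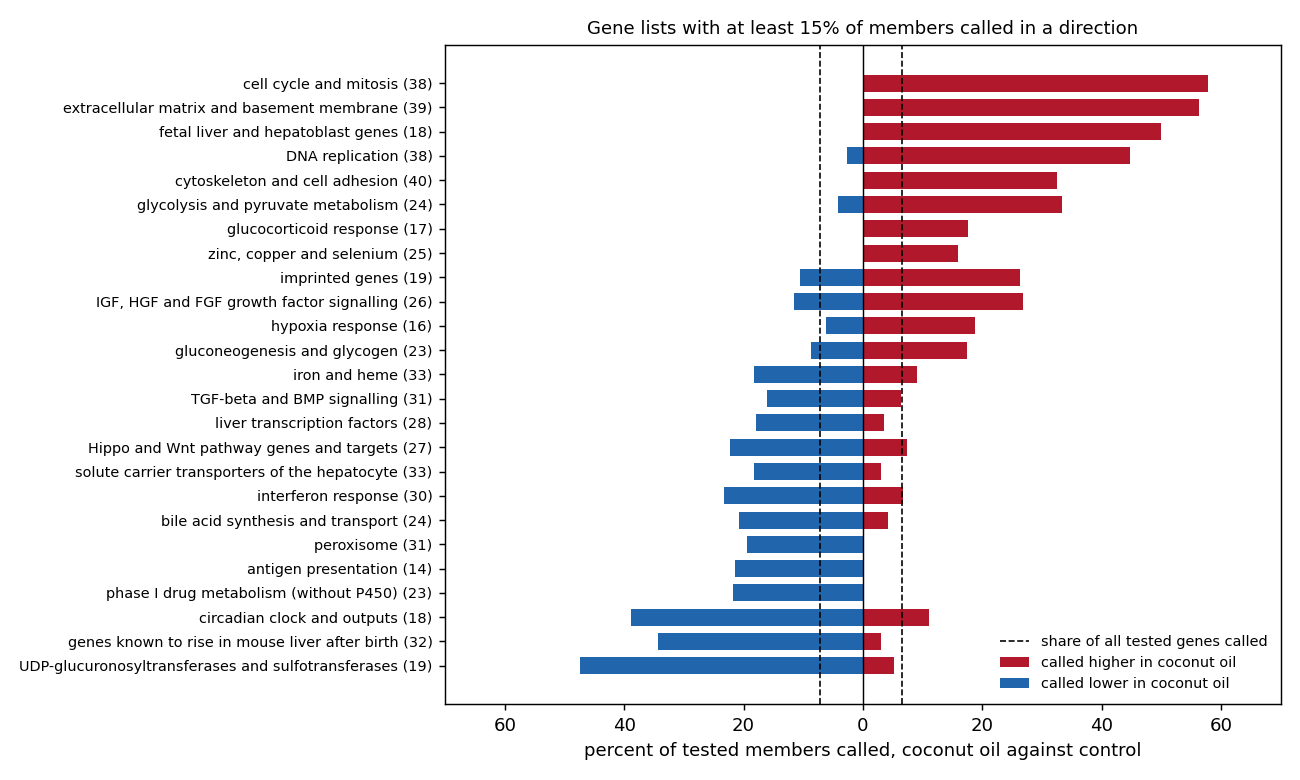
Percent of tested members called higher (right) or lower (left) in coconut oil than in control, for the 25 lists with at least 10 tested members, sex-related lists aside, and at least 15% called in a direction; the number tested stands after each name. Dashed lines mark the share of all tested genes called, 6.62% higher and 7.15% lower. Cell cycle, matrix, fetal and replication lists lie far to the right, and conjugation, postnatal and clock lists to the left.

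To find where coconut oil lay beyond both other diets, genes were taken that were called in the same direction against Control and against ALA and whose SFA arrays both lay outside the other 4. There were 102 such genes, 28 higher (0.255% of those tested) and 74 lower (0.674%). Both tests share the SFA arrays, so the count is a description. The rule does not ask that flaxseed oil had no effect: 5 of the 28 (Akr1c18, Acmsd, Pf4, Mpzl1 and Arntl) were also called higher in ALA than in Control, and 1 of the 74 (Cyp2d37-ps, a pseudogene) was also called lower. Another 5 of the 74 were called higher in ALA, and 91 of the 102 were not called in ALA. It was fragile. The rule sets both SFA arrays outside the other 4, so leaving out an array could not change either sign of any of the 102 genes. Leaving out any single array left far fewer genes that met the rule, as given below. With the SFA and Control arrays and the SFA and ALA arrays each fitted on their own there were 5. Other scalings gave 46 to 95 genes, not all of them among the 102. Median centring gave 95, of which 62 were among the 102, and 75th percentile centring gave 67, of which 57 were. At an unadjusted p under 0.05, 2463 genes differed between SFA and ALA. Of the genes lower in SFA than in both diets, 3 of 74 (4.05%) lie on the X chromosome, and of those higher 1 of 28 (3.57%), beside 2.61% of all tested genes. Against Control alone, 32 of the 727 higher genes (4.4%) and 14 of the 785 lower ones (1.78%) lie there. The part of sex in any of these genes, X-linked or not, was not tested.

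Among the genes higher in SFA than in both diets, Akr1c18 was farthest. This aldo-keto reductase inactivates progesterone, and it read 4.22 and 4.29 in Control, which is within the range of undetected genes, 5.52 and 7.15 in ALA, and 9.02 and 9.0 in SFA. It stood 2.67 above ALA (95% interval 1.61 to 3.73, adjusted p = 0.0431). Hat1, which acetylates newly made histone H4, read 7.27 and 6.87 in Control, 7.05 and 7.04 in ALA, and 8.47 and 8.17 in SFA. The Control and ALA arrays overlapped, and SFA stood 1.25 over Control and 1.28 over ALA. Rfc4 was 1.68 and 1.20 higher, Tcf19 1.18 and 0.97, the microtubule nucleation factor Mzt1 0.96 and 1.22, and the translesion ubiquitin ligase Rad18 1.06 and 0.92. The linker histone H1f2, Cks2, a subunit of cyclin-dependent kinases, and the SUMO-activating subunit Sae1, all named after their values were seen, belonged here too, at 1.06, 0.75 and 0.88 above ALA.

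Pf4, platelet factor 4, read 5.29 and 4.89 in Control, 6.24 and 6.39 in ALA, and 7.42 and 7.46 in SFA. Ngp, a neutrophil granule protein, read 4.38 and 4.70 in Control, 4.86 and 4.56 in ALA, and 5.87 and 6.08 in SFA, and was 1.44 and 1.27 higher. Other blood cell genes were lower than in both diets: Ermap, an erythroid membrane protein, was 1.10 below Control and 1.49 below ALA, and Clec9a, a dendritic cell receptor, 1.09 and 1.38. Of 8 tested neutrophil markers, Ngp included, 2 were called against Control, and the mean of all 17 was 4.87 to 5.07 in Control and 5.30 to 5.32 in SFA. Slc34a2, a sodium-phosphate cotransporter, read 5.11 and 4.85 in Control, 5.15 and 4.62 in ALA, and 6.48 and 6.24 in SFA. The tight-junction protein Cldn1 read 9.32 and 9.91 in Control, 9.24 and 9.10 in ALA, and 10.36 and 10.38 in SFA. Txndc12, a thioredoxin-like protein of the endoplasmic reticulum, was 0.95 and 1.01 higher. Cox7a1, a cytochrome c oxidase subunit, was 0.73 above Control and 1.01 above ALA, and Clpx of the mitochondrial protease 0.58 and 0.93; both were named after their values were seen.

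The genes lower in SFA than in both diets included liver regulators and non-coding RNAs. Nr1i3, the nuclear receptor CAR that controls drug metabolism genes, read 10.66 and 10.48 in Control, 10.38 and 10.34 in ALA, and 9.20 and 9.22 in SFA. It stood 1.36 ± 0.12 below Control and 1.15 ± 0.12 below ALA, while its relative Nr1i2 (PXR) rose by 0.62 against Control and differed from ALA by -0.19 (95% interval -0.52 to 0.15). Naaladl2 read 8.27 and 8.31 in Control, 7.98 and 8.14 in ALA, and 6.57 and 6.04 in SFA. Frmd6, an upstream member of the Hippo pathway, was 1.38 below Control and 1.23 below ALA. Alas1, the rate-limiting enzyme of heme synthesis, read 10.78 and 10.59 in Control, 11.25 and 11.17 in ALA, and 10.21 and 10.05 in SFA, and was 0.55 and 1.08 lower. Slc1a2, a glutamate transporter, was 1.39 and 0.94 lower, Vegfa 0.79 and 0.73, and Ogt, the enzyme that adds O-GlcNAc to nuclear and cytosolic proteins and is named after its values were seen, 1.08 and 0.92. Genes for nuclear RNA processing named the same way were the splicing kinase Clk4, the cleavage factor subunit Cpsf6 and the splicing factor Prpf38b, at 0.77, 0.72 and 0.83 below ALA. The splicing factor list as a whole had 1 of 46 members (Srsf11) lower against Control, with a median of 0.05.

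**Figure D3:**
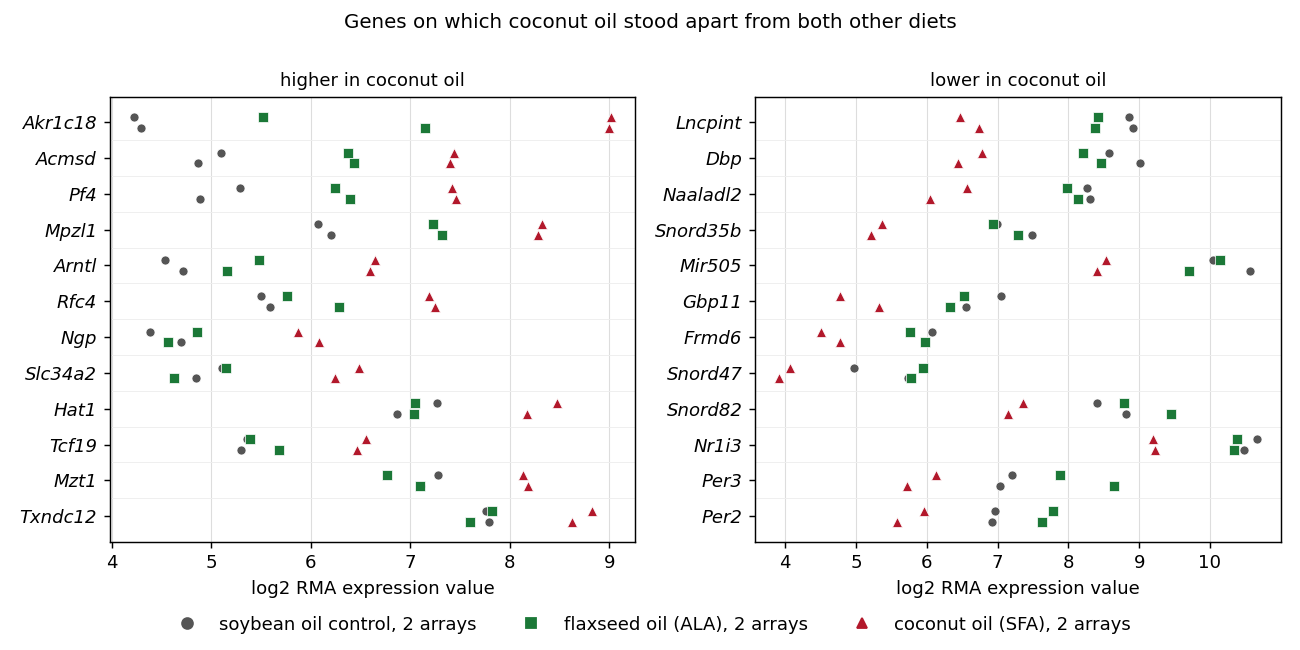
Log2 RMA values of the 24 genes with the largest differences of coconut oil from both other diets, 12 higher (left) and 12 lower (right), with a point for each of the 6 arrays. By the rule that picked these genes, the SFA points lie outside all 4 other points in every row. Control and ALA overlap on Hat1 and Slc34a2 and lie apart on Per2 and Per3.

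Clock genes were among those on which SFA lay beyond both other diets. The mammalian clock is a loop in which Arntl (BMAL1) with Clock switches on Per, Cry and Nr1d genes and the output factors Dbp and Tef, whose products feed back or drive daily rhythms of liver genes. Arntl read 4.53 and 4.72 in Control, 5.48 and 5.16 in ALA, and 6.64 and 6.59 in SFA, and rose by 1.99 ± 0.15. Per2 read 6.96 and 6.92 in Control, 7.79 and 7.63 in ALA, and 5.96 and 5.58 in SFA. It was lower in SFA than Control (-1.17 ± 0.16, adjusted p = 0.00758) and higher in ALA than Control (0.77, adjusted p = 0.033). Per3 showed the same opposite order, at -1.19 for SFA and 1.14 for ALA. Dbp read 8.57 and 9.01 in Control, 8.21 and 8.46 in ALA, and 6.78 and 6.44 in SFA, and Tef stood 1.01 below Control and 1.21 below ALA. In all, 7 of 18 tested clock and output genes fell and 2 rose against Control (median -0.40), and 6 were lower and 1 higher than in ALA (median -0.48).

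Nr1d1, Cry1 and Clock were not called between the oils. Nr1d1 (REV-ERB alpha), the repressor of Arntl, read 10.51 and 10.78 in Control, 9.19 and 9.48 in ALA, and 9.55 and 9.43 in SFA, so it fell by 1.16 with coconut oil and differed from ALA by 0.15 (95% interval -0.22 to 0.53). Cry1 rose by 1.07 and differed from ALA by -0.22 (95% interval -0.49 to 0.05). Clock differed from Control by 0.17 (adjusted p = 0.428). Ciart, a repressor of the loop chosen after its values were seen, was called between the oils: it was 2.09 below ALA (adjusted p = 0.0409) and 0.64 below Control (adjusted p = 0.225). The labels used here give no hour of collection, so a difference in hour between the groups cannot be told apart from diet for these genes. Leaving out Control replicate 1, Control replicate 2 or SFA replicate 1 left 4 clock genes called lower against Control, and leaving out SFA replicate 2 left 3. Opposite calls against Control also arose for Grik5 (-0.77 in SFA and 0.64 in ALA), Klhl6 (-0.50 and 0.57) and the gene model Gm10590 (-0.63 and 0.64); no gene was called higher in SFA and lower in ALA.

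**Figure D4:**
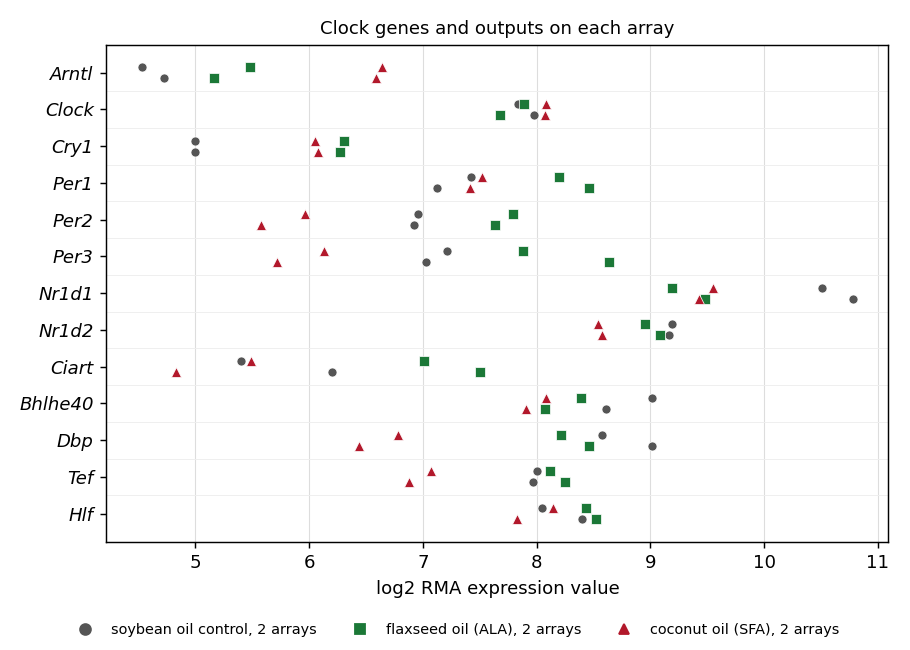
Log2 RMA values of 13 clock genes and clock outputs on each of the 6 arrays. The SFA points lie to the right of all others for Arntl and to the left for Per2, Per3, Dbp and Tef, whereas for Nr1d1 and Cry1 SFA and ALA lie together apart from Control.

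The loop is known to work through short promoter elements. Windows from 250 bases before to 50 after each start (RefSeq, GRCm38.p6) were searched on both strands for the E-box CACGTG bound by BMAL1 with CLOCK, the D-box TTATGNAA bound by DBP and TEF, and the half-site AGGTCA bound by REV-ERB and ROR receptors. The motifs do not overlap in the stretches shown, and each palindromic E-box was counted once. Of the 9 called clock genes 7 had a window: Cry1 and Tef held an E-box, Per3 held a D-box pair, Nr1d2 and Arntl held the half-site, and Dbp and Nr1d1 held none of the 3. Among all 32851 windows of this length, 7.15% held the E-box, 3.38% the D-box and 16.3% the half-site. The stretches before the start are shown 5′ to 3′ on the gene's strand for the genes with a match there, and for Nr1i3, to set them beside the direction of change; capitals mark the motif.
Per3, chr4:151044776-151044910, minus strand: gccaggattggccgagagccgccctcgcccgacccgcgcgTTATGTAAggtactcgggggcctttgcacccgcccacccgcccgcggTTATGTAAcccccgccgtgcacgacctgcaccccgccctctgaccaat
Tef, chr15:81802506-81802591, plus strand: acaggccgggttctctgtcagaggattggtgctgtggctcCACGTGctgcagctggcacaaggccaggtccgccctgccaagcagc
Cry1, chr10:85185069-85185154, minus strand: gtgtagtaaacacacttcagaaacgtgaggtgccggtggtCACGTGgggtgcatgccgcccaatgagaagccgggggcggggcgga
Nr1d2, chr14:18239138-18239223, minus strand: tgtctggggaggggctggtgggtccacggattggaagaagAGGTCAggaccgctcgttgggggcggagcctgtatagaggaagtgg
Nr1i3, chr1:171213720-171213771, plus strand: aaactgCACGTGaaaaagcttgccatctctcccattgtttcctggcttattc
Tef and Cry1 both carry the E-box and moved in opposite directions against Control, Tef down by 1.01 and Cry1 up by 1.07. Per3, with the paired D-box, fell in SFA. So did Dbp and Tef, and all 3 belong to the genes picked as lower than both diets. In ALA against Control, Per3 rose by 1.14, while Dbp and Tef differed by -0.46 and 0.20 and were not called. Nr1d2, with the half-site, fell by 0.63, and Arntl rose; the match in Arntl lies after the start. A match is a description of letters and says nothing on binding in these livers.

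Non-coding transcripts were often lower in SFA. Of 326 tested genes that RefSeq does not class as protein-coding, 77 (23.6%) were called lower than Control and 1 higher, with a median difference of -0.36; of 10634 protein-coding genes 706 (6.64%) were lower and 726 higher, with a median of -0.04. By class, 34 of 157 long non-coding RNAs (21.7%), 16 of 57 microRNA loci (28.1%) and 11 of 33 small nucleolar RNAs (33.3%) were lower, and none of these was higher. Their medians were -0.29, -0.47 and -0.48. ALA against Control gave medians of -0.08, -0.24 and 0.01, with the same Control arrays. Of the 74 genes lower in SFA than in both diets, 20 were non-coding, against 2.97% of the tested genes. The classes were counted after the values were seen. Both SFA arrays also had the lowest medians over all probes, as given above; the part of that in this count was not tested. With each of the other scalings the medians of the 3 classes stayed negative; over all alternatives other than leaving out an array, 14 to 34 long non-coding RNAs, 7 to 16 microRNA loci and 8 to 12 small nucleolar RNAs were called lower. Without SFA replicate 1, 8 long non-coding and 2 small nucleolar RNAs were called, and without Control replicate 2, 2 microRNA loci.

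Lncpint, a long non-coding RNA induced by p53, read 8.86 and 8.92 in Control, 8.42 and 8.38 in ALA, and 6.47 and 6.74 in SFA. It stood 4.87-fold below Control and 3.48-fold below ALA (log2 difference -1.80 ± 0.14, adjusted p = 0.0294). Malat1, an abundant RNA of nuclear speckles, read 10.62 and 10.66 in Control, 10.31 and 10.76 in ALA, and 9.50 and 9.42 in SFA. Firre, an X-linked RNA of nuclear architecture, read 7.53 and 7.89 in Control, 7.64 and 7.73 in ALA, and 6.56 on both SFA arrays. All 3 RNAs are among the genes lower in SFA than in both diets, and the rule for these places all 4 other arrays above SFA. Malat1 and Firre were named after their values were seen.

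Small nucleolar RNAs guide chemical modification of ribosomal RNA and are mostly cut from introns of other genes. Snord35b read 6.99 and 7.48 in Control, 6.93 and 7.29 in ALA, and 5.36 and 5.21 in SFA. It was 3.87-fold lower than Control. Snord82 read 8.41 and 8.82 in Control, 8.78 and 9.45 in ALA, and 7.36 and 7.15 in SFA, and Snord47 read 4.97 and 5.73, 5.94 and 5.78, and 4.06 and 3.91, the last within the range of undetected genes. For 7 of the 11 small nucleolar RNAs that fell, RefSeq bounds place a tested gene around them: Gas5, around Snord47, fell by 0.63, and the other 6 were not called, with a median of 0.09 over all 7. Ncl (nucleolin), around Snord82, read 8.96 and 9.04 in Control and 9.09 on both SFA arrays. Hspa8, a constitutive heat shock protein, lies around Snord14e and differed by -0.16 (adjusted p = 0.427), while Snord14e fell by 1.78.

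The 3 microRNA loci lower in SFA than in both diets are shown with their mature sequences, since the array measures the locus and does not separate its arms. Each mature RNA is given 5′ to 3′ with its seed, bases 2 to 8, in capitals (RefSeq, GRCm38.p6). The 5 mature RNAs have 5 different seeds.
miR-505-3p, chrX:60394416-60394437, minus strand: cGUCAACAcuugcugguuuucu
miR-505-5p, chrX:60394451-60394473, minus strand: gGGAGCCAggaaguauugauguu
miR-7a-5p, chr13:58392841-58392863, minus strand: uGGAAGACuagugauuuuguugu
miR-7a-1-3p, chr13:58392800-58392821, minus strand: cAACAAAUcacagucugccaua
miR-680, chr12:35194849-35194869, minus strand: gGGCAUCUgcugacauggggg
The Mir505 locus read 10.05 and 10.56 in Control, 10.14 and 9.71 in ALA, and 8.53 and 8.40 in SFA, 1.84 ± 0.21 SE below Control. It was 1.46 below ALA (95% interval 0.95 to 1.96 lower). The Mir7-1 locus read 6.12 and 5.96 in Control, 6.16 and 6.21 in ALA, and 5.40 and 5.28 in SFA, and Mir680-3 read 6.65 and 6.56, 6.30 and 6.52, and 5.17 and 5.51. Hnrnpk, the RNA-binding protein gene that holds Mir7-1, differed from Control by 0.02 (adjusted p = 0.907). Of the 16 microRNA loci that fell, 7 lie within a tested gene; 2 of these 7 genes rose (Igf2 and Arrb1) and 2 fell (Elmo3 and Spaca6), with a median of -0.16. Elmo3 fell by 0.59 and Mir328 within it by 0.76, and Spaca6 fell by 0.65 and Mir99b by 0.78. Igf2 rose by 1.57, and Mir483 within it read 6.30 and 6.40 in Control and 4.98 and 5.36 in SFA, a fall of 1.19.

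**Figure D5:**
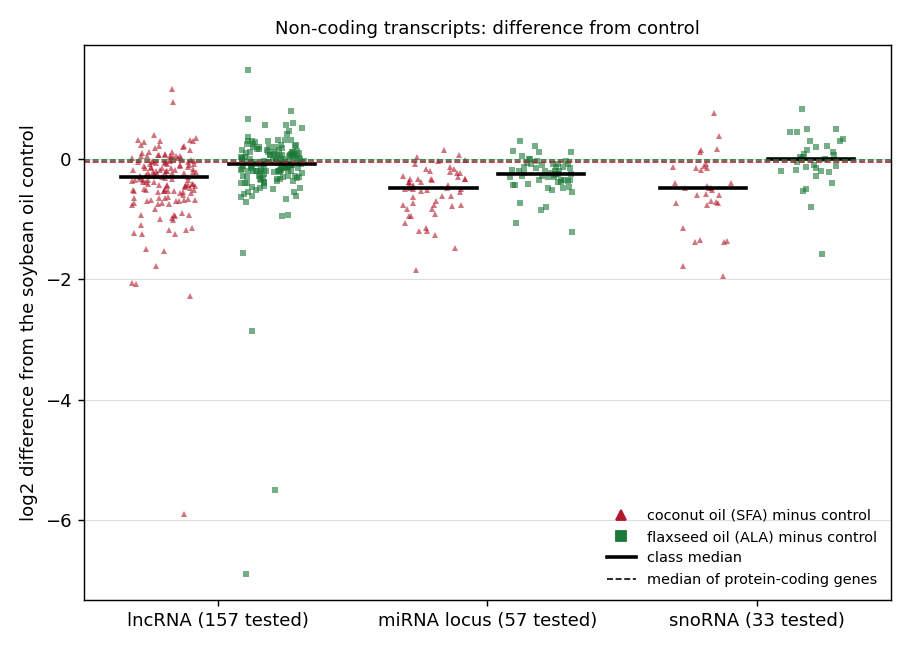
Log2 difference from the soybean oil control (vertical axis) of each tested long non-coding RNA, microRNA locus and small nucleolar RNA, for coconut oil (triangles) and flaxseed oil (squares); black bars are class medians and dashed lines the medians of protein-coding genes, -0.04 and -0.01. The coconut oil medians lie at -0.29, -0.47 and -0.48, below those of flaxseed oil at -0.08, -0.24 and 0.01.

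Of 40 tested histone writers, readers and DNA methyltransferases, 3 (7.50%) rose and 1 (2.50%) fell against Control, beside 6.62% and 7.15% of all tested genes; none was called without either SFA array, and 2 and 1 were called higher without Control replicates 1 and 2. Ezh2, the methyltransferase of polycomb complex 2, read 6.72 and 6.68 in Control, 6.98 and 6.99 in ALA, and 7.48 and 7.58 in SFA, and rose by 0.83 ± 0.12. The histone chaperone Asf1b rose by 1.59. Dnmt1, Dnmt3a and Dnmt3b differed by 0.32, -0.18 and -0.02 (adjusted p = 0.281, 0.495 and 0.919), and Uhrf1, the partner of Dnmt1 at replicated DNA, rose by 0.90. Among liver transcription factors, Hnf4a differed by -0.10 and Cebpa by -0.25 (adjusted p = 0.701 and 0.377), whereas Foxa1 fell by 0.89, Nfix fell by 0.50 and Foxo1 rose by 0.68. Albumin (Alb) read 12.75 and 12.74 in Control and 12.63 and 12.58 in SFA (difference -0.14, adjusted p = 0.437). The lipid sensors Ppara, Pparg and Nr1h4 differed by -0.29, -0.07 and -0.47, none of them called.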

How the data were processed

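Each of the 6 samples was 1 single-colour Affymetrix array of total RNA from pooled newborn livers. The authors deposited 1 log2 value per probe; RMA (background correction, quantile normalization and probe summary) and Partek 6.6 are named per the submitters' processing notes, and the scale was read from the values. The authors' annotation version and filters are not given in the sources used here. The number of arrays limits the precision.

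Of 35556 probes, 21789 had 1 symbol in the platform annotation, 1621 several and 12146 none; 21698 matched RefSeq (GRCm38.p6) by gene ID, with 0 symbols changed. The brightest probe per gene, by mean of the 6 arrays, gave 19938 genes, and 10977 with a mean of at least 5 were tested. limma 3.58.1 (R 4.3.3) was fitted to all 6 arrays with a mean per diet (lmFit, contrasts.fit, eBayes; 3 residual and 4.05 prior degrees of freedom), two-sided, with Benjamini-Hochberg adjustment over all tested genes. Intervals of differences are at 95% from this fit. The code was tested on simulated data. A gene was called within the range of undetected genes at or under 4.42, which is the top reading that Eif2s3y, Kdm5d and Uty reached on the arrays low for all 3.

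Named genes were the 12 with the smallest p in each direction (log2 change of at least 1, no overlap, both means of at least 5, no gene models, and 27 genes of an earlier account left out), the 12 per direction farthest from both diets, the 3 called members per list with the largest change plus up to 4 set apart from both diets, up to 6 called in opposite directions per diet, and the fixed regulators. Chosen after their values were seen were Abcb4, Arrb1, Baat, Ciart, Cks2, Cldn1, Clec9a, Clk4, Clock, Clpx, Cox7a1, Cpsf6, Cry1, Cyp2d37-ps, Elmo3, Ermap, Fgfr3, Firre, Gas5, Gckr, H1f2, Hnrnpk, Hspa8, Irf1, Lpin1, Malat1, Mcm10, Mir328, Mir483, Mir680-3, Mir7-1, Mir99b, Ncl, Nfix, Nr1d1, Nr1d2, Ogt, Pgam1, Pgk1, Prpf38b, Sae1, Snord14e, Spaca6, Stat2, Sult1d1, Tpi1 and Ugdh. The comparison and the 63 gene lists and 15 marker lists were chosen with earlier results of these data known. RNA classes come from RefSeq biotypes, and bounds of surrounding genes from RefSeq without regard to strand. Alternatives were filters, scalings, probe averaging, fits on 2 groups, an intensity trend, a replicate block and leaving out each array; centring on the tested genes was added after the data were seen.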

Additional observations from a re-analysis of the deposited data

How the results depend on the processing

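No call against Control among the 192 genes picked by rule reversed in any of the 17 alternatives. The calls came from the same arrays, so a reversal was unlikely from the outset. For SFA against Control (727 higher, 785 lower), the counts were 1161 higher and 373 lower with median centring and 515 lower with 75th percentile centring; leaving out 1 array gave 117 to 701 higher and 128 to 727 lower. For SFA against ALA (48 higher, 120 lower), the counts higher and lower were 8 and 24 without a filter on dim genes, 103 and 190 at a mean of at least 6, 102 and 52 with median centring, 2 and 9 on the arrays of those groups alone, and 107 and 201 with an intensity trend; the lower count was 49 with centring on tested genes, 42 at the 75th percentile, 34 with quantile normalization and 42 with cyclic loess, and leaving out 1 array gave 0 to 27 higher and 0 to 9 lower. For genes apart from both diets (28 higher, 74 lower), the counts were 4 and 15 without a filter, 51 higher at a mean of at least 6, 61 and 34 with median centring, 0 and 5 on the arrays of each pair alone, and 57 and 119 with the trend; the lower count was 39, 30, 25 and 32 under the 4 other scalings in the order above, and leaving out 1 array gave 0 to 19 higher and 0 to 8 lower. These counts need not hold the same genes. The causes of the changes in count were not tested, and leaving out an array also leaves fewer samples. With the replicate number as a block (replicate block), 625 genes were higher and 607 lower than Control and 0 differed from ALA in either direction, so 0 were apart from both diets, with 2393 at an unadjusted p under 0.05. Deviations of same-numbered arrays correlated across genes at -0.0302, -0.00402 and 0.0226. With 2 arrays a group, these values cannot tell whether the numbers pair the pools. Of 3242 values of the 192 named genes against Control under alternatives, 2762 kept direction and side of the threshold and 480 lost the call. Against ALA, 318 of 603 values of 36 such genes lost the call and 285 kept it.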

Other observations

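Several large gene groups showed no more calls between SFA and Control than the background share. Of 39 cytosolic ribosomal proteins 1 rose and none fell (median 0.11), of 49 mitochondrial ribosomal proteins 2 rose (median 0.01), and of 49 respiratory chain and ATP synthase genes 1 rose and 1 fell (median 0.16). The 36 proteasome genes had 2 lower and none higher (median -0.11), with Psma6 lower by 0.50. Autophagy and lysosome genes had 1 of 38 lower, Atg7, an enzyme of autophagosome formation, which fell by 0.63. Of 30 genes of the unfolded protein response 2 fell and 1 rose, and 25 had a negative difference. Ern1 and Ero1b fell by 0.69 and 1.06, and Ero1a rose by 0.77. Ddit3 (CHOP), a member of the separate ATF4 response list, fell by 0.65. In contrast, glucocorticoid response genes had 3 of 17 higher (17.6%, beside 6.62% of all tested genes) and none lower, with a median of 0.24. These were Mt1, Mt2 and Fkbp5. Flaxseed oil gave 7 of 17 higher (beside 5.11% of all tested genes) and none lower, with a median of 0.49. Against ALA, SFA had a median of -0.24, with 2 called lower and none higher. Fkbp5, a cochaperone that glucocorticoids induce, read 7.02 and 6.74 in Control, 8.74 and 8.61 in ALA, and 7.88 and 7.72 in SFA, so coconut oil lay between and was 0.88 below ALA (adjusted p = 0.0431 with limma and Benjamini-Hochberg adjustment).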
